A study of Mus musculus with 6 samples.

Results

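Pericytes and vascular smooth muscle cells wrap the vessels of skeletal muscle and are known together as mural cells. Transcripts of 10 mural cell genes were compared in gastrocnemius, a calf muscle, between mice lacking SPARC and wild type mice. The genes were taken from a list chosen with earlier results of these arrays known, and were matched by platform gene symbol. Each had 1 probe set, so 10 of the 19938 genes with a probe set of a single symbol were followed. All 10 were bright enough to be tested among 16487 genes. The study set metabolic transcripts of muscle side by side in 3 males labelled as homogenous SPARC knockout (knockout arrays 1 to 3) and 3 wild type males (wild type arrays 1 to 3), all 12 weeks old. The strain is given as B6;129S-Sparctm1Hwe/J for both genotypes, a mixed background that bears the name of the Sparc allele. No promoter, Cre driver or treatment is named in the labels, nor is it stated that the groups were littermates. 1 array was run for each sample and was taken to stand for 1 mouse.

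Pericytes lie on capillaries within the basement membrane that they share with the endothelium. Endothelial cells release platelet-derived growth factor B, and its receptor on mural cells, PDGFRB, recruits them to the vessel. Smooth muscle cells of arteries and arterioles carry in addition a contractile apparatus of smooth muscle actin, myosin and their regulators, whose genes are switched on by serum response factor (SRF) with its partner myocardin, and by Notch signals from the endothelium. SPARC, a matricellular glycoprotein, binds collagen and, in binding assays, platelet-derived growth factor.

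The values are log2 of the deposited intensity, and a difference between 2 such values is a log2 change. Sparc itself read 6.74, 6.46 and 5.83 in the knockout arrays, against 11.80, 11.73 and 11.87 in the wild type arrays, so the labels and the targeted transcript go together. The 6 arrays had median intensities of 40.5 to 44.7. Transcripts varied more among the knockout arrays, with a median SD of 0.163, than among the wild type arrays, with 0.0912. Markers of muscle fibres were bright in all arrays, with a list mean of 12.65 to 12.81 in knockout arrays and 12.78 to 12.82 in wild type arrays over 8 genes.

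In all 10 mural cell genes the mean was higher in knockout muscle, by 0.013 to 0.54 on the log2 scale, where 50% of all genes had a higher mean, but 0 of 10 passed the test, in either direction. The test was limma with p-values adjusted over all 16487 genes and a threshold of 0.05, and 0.321% of all genes passed it upward and 0.673% downward. At an unadjusted p of 0.05, 5 of the 10 were higher in the knockouts and 0 lower, where 8.16% and 10.3% of all genes were. In 5 genes, Pdgfrb, Cspg4, Notch3, Acta2 and Myh11, all 3 knockout arrays lay above all 3 wild type arrays, which was so in 11.1% of all genes. The median change of the 10 genes was 0.30, against 5.34e-05 over all genes tested. The genes were chosen with earlier results of these arrays known, so these counts describe them and give no independent evidence of a direction. In whole muscle, more mural cells and more RNA per cell cannot be told apart.

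**Figure D1:**
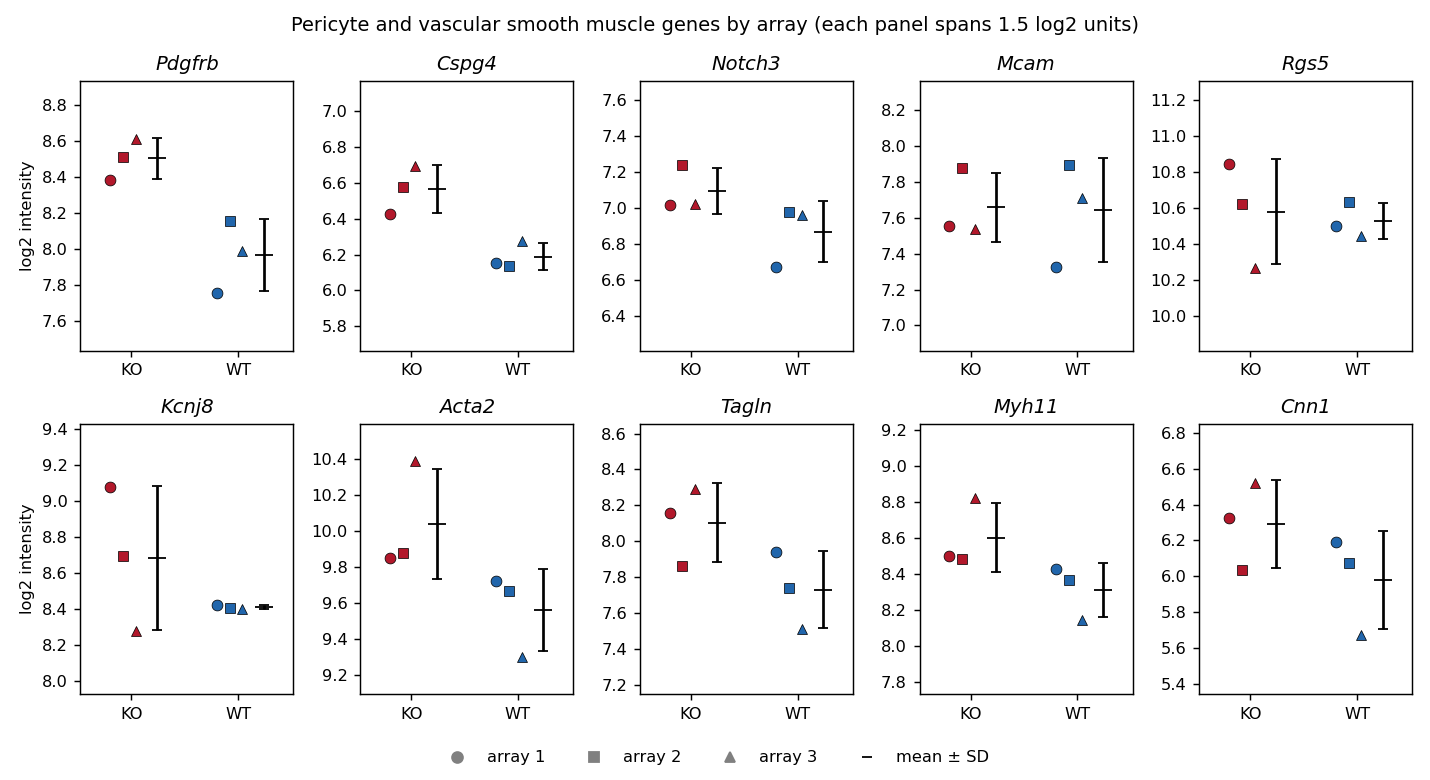
Log2 intensity (y axis) of the 10 mural cell genes in each of 3 knockout (KO, red) and 3 wild type (WT, blue) arrays; symbols mark arrays 1 to 3, and the bar beside them is the mean ± SD. Knockout and wild type arrays do not overlap for Pdgfrb, Cspg4, Notch3, Acta2 and Myh11, and knockout array 3 is the highest knockout array for Acta2, Tagln, Myh11 and Cnn1.

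Among the 6 pericyte genes of the 10, Pdgfrb and Cspg4 had the largest changes. Pdgfrb, the receptor for platelet-derived growth factor B, read 8.39, 8.51 and 8.62 in the knockout arrays, against 7.76, 8.16 and 7.99 in the wild type arrays. The lowest knockout array stood 0.23 above the highest wild type array. Its change was 0.54 ± 0.12 (SE; limma adjusted p = 0.0811), a 1.45-fold difference, and 96.0% of the genes tested had a change of that size or smaller. Leaving out 1 array at a time moved it between 0.43 and 0.63, and it passed the threshold in none of 16 alternative settings, with a lowest adjusted p of 0.0692.

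Cspg4, which encodes the NG2 proteoglycan of the pericyte surface, read 6.42, 6.58 and 6.69 in the knockout arrays, against 6.15, 6.14 and 6.27 in the wild type arrays. Its groups did not overlap, and the wild type arrays had an SD of 0.0739, where the median over all genes was 0.0912. The change was 0.38 ± 0.10 (SE; limma adjusted p = 0.119), and it stayed between 0.31 and 0.45 with any 1 array left out.

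Notch3, the Notch receptor of mural cells, read 7.02, 7.24 and 7.03 in the knockout arrays, against 6.67, 6.98 and 6.96 in the wild type arrays. The genotypes were separated by only 0.039, and wild type array 1 stood apart below the rest. The change was 0.22 ± 0.12 (SE; limma adjusted p = 0.358), and without wild type array 1 it was 0.13. Mcam, the adhesion molecule CD146, which is found on endothelium as well as on mural cells, read 7.55, 7.88 and 7.54 in the knockout arrays, against 7.33, 7.89 and 7.71 in the wild type arrays. The groups overlapped throughout, with wild type array 1 again the lowest. Its change of 0.013 ± 0.16 (SE; limma adjusted p = 0.977) had a 95% interval from -0.35 to 0.38 and turned negative without knockout array 2, without wild type array 1 and after centring the arrays on their medians.

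In Rgs5 and Kcnj8 the knockout arrays lay on both sides of the wild type arrays. Rgs5, a regulator of G-protein signalling and a common pericyte marker, read 10.85, 10.63 and 10.27 in the knockout arrays, against 10.50, 10.64 and 10.44 in the wild type arrays. Knockout array 1 was above and knockout array 3 below every wild type array. The change was 0.052 ± 0.14 (SE; limma adjusted p = 0.895), with a 95% interval from -0.27 to 0.38, and it was -0.081 without knockout array 1. Kcnj8 encodes Kir6.1, the pore of the vascular ATP-sensitive potassium channel. It read 9.08, 8.70 and 8.28 in the knockout arrays, against 8.42, 8.40 and 8.40 in the wild type arrays. The wild type arrays were nearly identical, with an SD of 0.0126, while the knockout arrays had an SD of 0.40. The change of 0.27 ± 0.18 (SE; limma adjusted p = 0.464) was 0.077 without knockout array 1 and 0.48 without knockout array 3. Abcc9, the sulphonylurea receptor that pairs with Kir6.1, had a change of 0.13 ± 0.14 (SE; limma adjusted p = 0.693), which was -0.0097 without knockout array 2. It was named as the partner of Kcnj8, outside the rule for named genes.

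Promoter sequence was available for 7 of the 10 genes, from RefSeq on GRCm38.p6. It is given for Cspg4, whose groups did not overlap, and for Rgs5, whose groups did, as the 250 bases before the start of the gene in the table, 5′ to 3′ on the strand of the gene. The Cspg4 window is chr9:56864854-56865103 on the plus strand and the Rgs5 window is chr1:169655251-169655500 on the plus strand, with capitals for the GC box, GGGCGG on either strand.
Cspg4: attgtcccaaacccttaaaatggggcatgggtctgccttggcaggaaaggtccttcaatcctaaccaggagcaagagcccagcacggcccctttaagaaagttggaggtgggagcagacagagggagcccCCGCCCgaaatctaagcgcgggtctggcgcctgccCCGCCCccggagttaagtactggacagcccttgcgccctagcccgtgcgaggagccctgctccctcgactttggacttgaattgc
Rgs5: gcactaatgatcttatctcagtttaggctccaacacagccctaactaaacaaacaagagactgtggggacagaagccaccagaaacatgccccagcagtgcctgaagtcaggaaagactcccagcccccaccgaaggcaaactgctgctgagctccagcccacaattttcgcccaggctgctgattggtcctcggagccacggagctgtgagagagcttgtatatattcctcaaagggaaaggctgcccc
The Cspg4 window held 2 GC boxes and the Rgs5 window 0. Among the 7 windows, those of Cspg4, Notch3 and Mcam held at least 1, with 2, 4 and 5 matches, and 32.7% of all 32851 windows in the table did. A match is a run of letters and was not tested for binding.

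The 4 contractile genes of smooth muscle had higher means in the knockouts by 0.29 to 0.48. All 4 were highest in knockout array 3 among the knockouts, and all 4 were highest in wild type array 1 and lowest in wild type array 3 among the wild types. Acta2, smooth muscle alpha-actin, read 9.85, 9.88 and 10.39 in the knockout arrays, against 9.72, 9.67 and 9.30 in the wild type arrays. The groups did not overlap, but the lowest knockout array lay only 0.13 above wild type array 1. The change was 0.48 ± 0.17 (SE; limma adjusted p = 0.186), and it was 0.30 without knockout array 3.

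Myh11, the smooth muscle myosin heavy chain and the member most restricted to smooth muscle, read 8.50, 8.48 and 8.82 in the knockout arrays, against 8.43, 8.37 and 8.14 in the wild type arrays. The genotypes were separated by 0.054, with knockout array 3 alone well above the others. The change was 0.29 ± 0.13 (SE; limma adjusted p = 0.268) and 0.18 without knockout array 3.

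Tagln, transgelin or SM22-alpha, an actin-binding protein, read 8.16, 7.86 and 8.29 in the knockout arrays, against 7.94, 7.74 and 7.51 in the wild type arrays. Knockout array 2 lay below wild type array 1, so the groups overlapped. The change was 0.37 ± 0.15 (SE; limma adjusted p = 0.224). Cnn1, calponin, which binds actin and restrains myosin, read 6.33, 6.03 and 6.52 in the knockout arrays, against 6.19, 6.08 and 5.67 in the wild type arrays. Its change was 0.31 ± 0.17 (SE; limma adjusted p = 0.366). Without wild type array 3 the changes were 0.26 for Tagln and 0.16 for Cnn1, and without knockout array 2 they were 0.49 and 0.44.

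**Figure D2:**
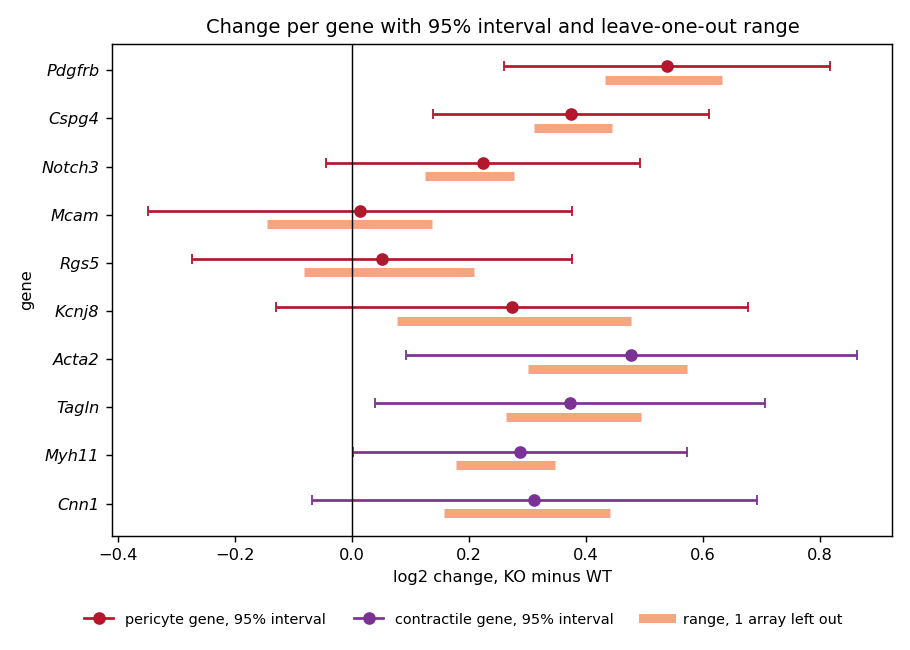
Log2 change (knockout minus wild type, x axis) of each mural cell gene with the 95% interval of the limma fit (points and bars) and the range when any 1 array is left out (orange). The intervals of Pdgfrb, Cspg4, Acta2, Tagln and Myh11 lie above 0 before adjustment over all genes, and the ranges of Mcam and Rgs5 cross 0.

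The highest knockout array and the order of the wild type arrays were shared by the 4 contractile genes, which is the reason for giving the promoters of Acta2 and Cnn1, the 2 of them in the RefSeq table. SRF binds the CArG box, which has CC, 6 A or T bases and GG, and Notch signals act through RBPJ, whose core motif is TGGGAA. The windows, chr19:34255374-34255623 on the minus strand for Acta2 and chr9:22099003-22099252 on the plus strand for Cnn1, are the 250 bases before the start in the table. Capitals mark CArG boxes with 1 G or C among the 6 central bases and the RBPJ core, on either strand.
Acta2: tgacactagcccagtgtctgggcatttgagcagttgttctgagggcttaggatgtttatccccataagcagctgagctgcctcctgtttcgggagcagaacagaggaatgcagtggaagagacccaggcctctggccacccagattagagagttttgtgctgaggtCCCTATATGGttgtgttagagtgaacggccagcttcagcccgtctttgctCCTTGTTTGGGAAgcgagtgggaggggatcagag
Cnn1: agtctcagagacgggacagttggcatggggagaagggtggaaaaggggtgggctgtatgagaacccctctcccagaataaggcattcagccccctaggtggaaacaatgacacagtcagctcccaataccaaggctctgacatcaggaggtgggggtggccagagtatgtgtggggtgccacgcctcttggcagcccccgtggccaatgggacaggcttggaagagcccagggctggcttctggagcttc
The Acta2 window held 2 such CArG boxes, CCCTATATGG and CCTTGTTTGG, and the RBPJ core once, overlapping the end of the second box by 3 bases. The Cnn1 window held 0 of each, and neither window held a CArG box without a substitution. Over all 32851 windows, 1.47% held a CArG box, 7.24% one with 1 substitution and 21.6% the RBPJ core. None of the other 5 windows of the mural cell genes held any of these motifs.

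Acta2 has close relatives among the muscle actins, and whole-transcript probes of relatives can take up each other's transcripts. Actc1, cardiac alpha-actin, rose in knockout muscle, at 12.09, 12.25 and 12.41 in the knockout arrays, against 11.45, 11.58 and 11.48 in the wild type arrays (log2 change 0.75 ± 0.10 SE, limma adjusted p = 0.0147). The call was lost without any 1 of the wild type arrays, at 0.72 to 0.78. Both Actc1 and Acta2 were highest in knockout array 3, but wild type array 1 was the highest wild type array for Acta2 and the lowest for Actc1. Acta1, skeletal alpha-actin, had a change of -0.15 ± 0.075 (SE; limma adjusted p = 0.332). Actg2, smooth muscle gamma-actin, had one of 0.058 ± 0.15 (SE; limma adjusted p = 0.890). The part of these transcripts in the Acta2 signal was not tested.

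Further contractile and cytoskeletal genes of smooth muscle were read from a list of 18, of which 17 were tested. Of these, 0 passed, 14 were higher and 3 lower in mean, and the median change was 0.20. At an unadjusted p of 0.05, 6 were higher and 0 lower, where 8.16% and 10.3% of all genes were. The 3 with the smallest p were Flna, filamin A, at 0.53 ± 0.12 (SE; limma adjusted p = 0.0818), Myl9, the regulatory light chain of smooth muscle myosin, at 0.40 ± 0.10 (SE; limma adjusted p = 0.102), and Actn1, alpha-actinin 1, at 0.47 ± 0.12 (SE; limma adjusted p = 0.107). Myl9 read 8.99, 9.09 and 9.06 in the knockout arrays, against 8.80, 8.64 and 8.49 in the wild type arrays, with no overlap. Leaving out knockout array 2 raised the number of all genes past the threshold from 164 to 1017. Flna and Actn1 passed there, at 0.64 and 0.59. Both are made in many cell types beside smooth muscle.

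Of 18 further genes used to recognise pericytes, 1 rose and 0 fell past the threshold, where 0.321% and 0.673% of all genes did. At an unadjusted p of 0.05, 5 were higher and 0 lower, where 8.16% and 10.3% of all genes were. The gene past the threshold was Anpep, aminopeptidase N or CD13, which is also made by fibroblasts and myeloid cells. Anpep read 9.38, 8.53 and 8.97 in the knockout arrays, against 7.81, 7.88 and 7.98 in the wild type arrays. Its change was 1.07 ± 0.19 (SE; limma adjusted p = 0.0426), a 2.10-fold increase. The call was lost after centring the arrays on their medians, without the variance trend, and when knockout array 3 or any 1 wild type array was left out (adjusted p = 0.0502 to 0.203), with the change between 1.03 and 1.12 in these settings. The list as a whole had 11 higher and 7 lower means and a median change of 0.16. Rgs4, a relative of Rgs5 chosen after its value was seen, had a change of 0.82 ± 0.19 (SE; limma adjusted p = 0.0881).

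**Figure D3:**
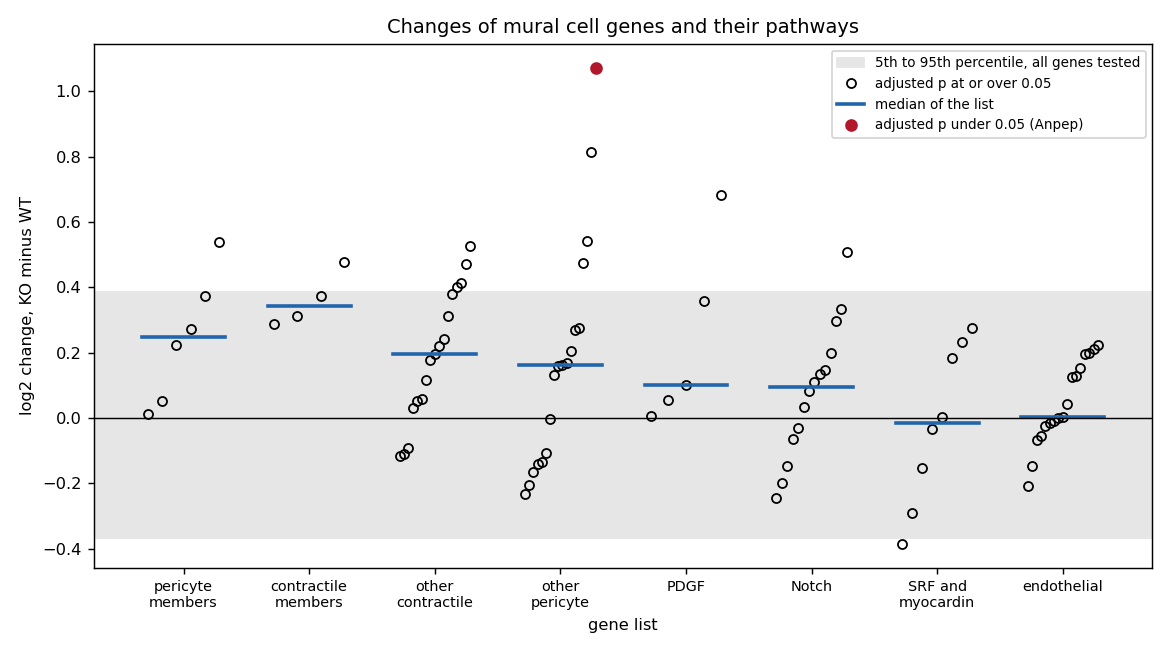
Log2 change (knockout minus wild type, y axis) of each tested gene in the lists on the x axis, with the median of each list (blue line) and the 5th to 95th percentile of all genes tested (grey band, -0.37 to 0.39). Anpep alone passed the threshold (filled point), and the endothelial genes lie around a median of 0.0027.

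Pdgfrb and Notch3 were read beside the other genes of their pathways. In the platelet-derived growth factor system 0 of 5 genes passed. Pdgfb, the endothelial ligand of PDGFRB, had a change of 0.0055 ± 0.14 (SE; 95% interval -0.31 to 0.32), with 7.58, 7.93 and 7.49 in the knockout arrays, against 7.48, 7.73 and 7.78 in the wild type arrays. It was named as a ligand of PDGFRB, outside the rule, as was Pdgfd, with a change of 0.10 ± 0.21 (SE; limma adjusted p = 0.858). Pdgfa, a ligand of the alpha receptor, was at 0.055 ± 0.090 (SE). Pdgfc, another ligand of the alpha receptor, had a change of 0.68 ± 0.19 (SE; limma adjusted p = 0.117). Without knockout array 2 it was at 0.91 and passed, as 1 of 1017 genes. The alpha receptor itself, Pdgfra, which marks fibroblasts, had a change of 0.36 ± 0.15 (SE; limma adjusted p = 0.248).

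In the Notch system 0 of 14 genes passed, with 9 higher and 5 lower means. Notch2, a second Notch receptor of smooth muscle, read 7.96, 7.69 and 7.86 in the knockout arrays, against 7.35, 7.33 and 7.30 in the wild type arrays. Its change was 0.51 ± 0.099 (SE; limma adjusted p = 0.0580). It passed the threshold with array weights, after a second quantile normalization and without knockout array 2, at 0.46 to 0.58. Of all genes, 329, 149 and 1017 passed in these settings, against 164 in the main one. Maml2 and Rbpj, a coactivator and the DNA-binding protein of the pathway, had changes of 0.30 ± 0.097 and 0.33 ± 0.12 (SE; limma adjusted p = 0.159 and 0.186), that of Rbpj being 0.15 when its 2 probe sets were averaged. The direct Notch targets of the list were named outside the rule, for that role. Hes1, Hey1 and Nrarp had changes of -0.25 ± 0.12, -0.15 ± 0.088 and -0.20 ± 0.16 (SE; limma adjusted p = 0.327 to 0.553), and Hey2 had one of 0.20 ± 0.23 (SE; limma adjusted p = 0.708).

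Of 8 genes around SRF and myocardin, 0 passed, with 4 higher and 4 lower means. Srf read 8.43, 8.66 and 8.51 in the knockout arrays, against 8.82, 8.75 and 8.91 in the wild type arrays. All knockout arrays were below all wild type arrays, as in 13.8% of all genes, and the change was -0.29 ± 0.098 (SE; limma adjusted p = 0.168). Mrtfa, a myocardin-related coactivator, was at -0.38 ± 0.13 (SE; limma adjusted p = 0.177). Without knockout array 2 it was at -0.51 and passed, as 1 of 1017 genes. Mef2c, a transcription factor of all muscle types, was at 0.27 ± 0.085 (SE; limma adjusted p = 0.143). Myocd, myocardin itself, was at 0.23 ± 0.12 (SE; limma adjusted p = 0.365), with values of 4.25 to 4.78 over all arrays, close to the filter for dim probe sets at 3.90. It was named outside the rule as the partner of SRF.

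Means of gene lists show how the mural cell genes lay beside other cell types in each array. Relative to the wild type mean, the 10 genes stood at 0.29, 0.26 and 0.32 in the knockout arrays, against -0.0071, 0.086 and -0.079 in the wild type arrays. That evenness hid unlike parts. The 6 pericyte genes stood at 0.28, 0.32 and 0.13 in the knockout arrays, against -0.13, 0.099 and 0.029 in the wild type arrays. The 4 contractile genes stood at 0.31, 0.17 and 0.61 in the knockout arrays, against 0.17, 0.066 and -0.24 in the wild type arrays. Knockout array 3 was therefore the lowest knockout in the mean of the pericyte genes and the highest in that of the contractile ones. Among the pericyte genes it was the lowest knockout for Rgs5, Mcam and Kcnj8 but the highest for Pdgfrb and Cspg4. In the means, knockout array 2 lay level with wild type array 1 for the contractile genes.

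Genes of endothelial cells, the other cells of the vessel wall, had 9 higher and 8 lower means in the knockouts. Of 17 tested, 0 passed and 0 were past an unadjusted p of 0.05 in either direction, with a median change of 0.0027. Their list mean stood at 0.13, 0.28 and -0.27 in the knockout arrays, against -0.052, 0.039 and 0.014 in the wild type arrays. Knockout arrays 1 and 2 thus lay above every wild type array, and knockout array 3 below. Knockout array 3 was the lowest knockout array in this mean, as it was in Rgs5, Kcnj8 and Mcam, whereas it was the highest in Pdgfrb, Cspg4 and the 4 contractile genes. The 3 endothelial genes with the smallest p, Egfl7, Cldn5 and Sox18, had changes of 0.21 ± 0.13, -0.21 ± 0.13 and 0.20 ± 0.14 (SE). The difference between the mural and the endothelial genes was not tested.

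**Figure D4:**
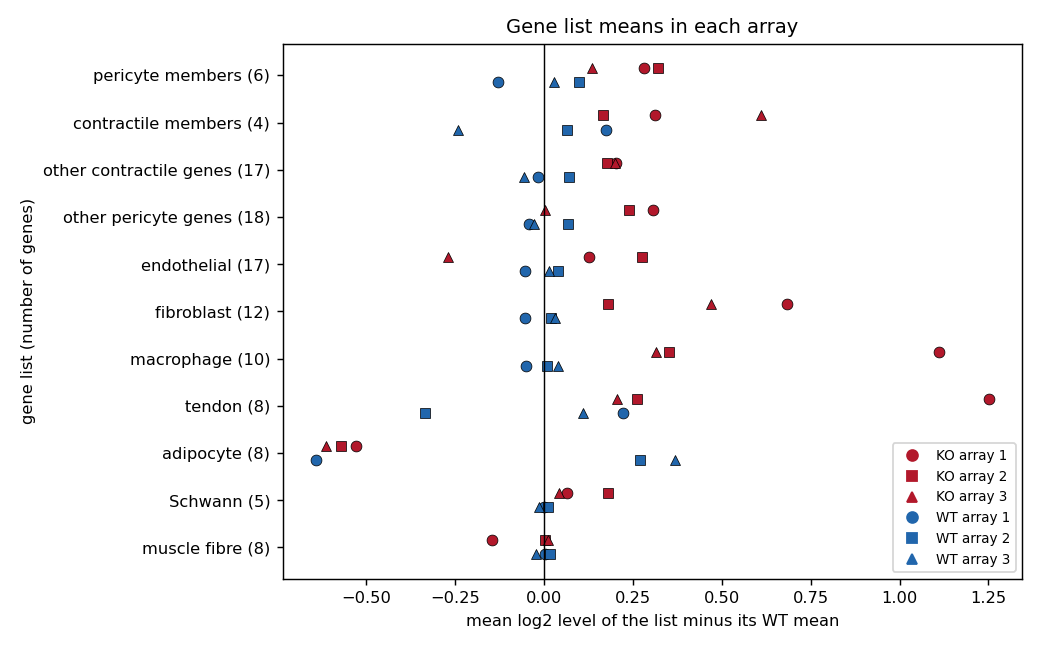
Mean log2 level of each gene list minus its wild type mean (x axis) in each array, with knockout arrays in red above and wild type arrays in blue below on every line; the number of genes is in brackets. The 4 contractile members are highest in knockout array 3, at 0.61, where the endothelial genes are lowest, at -0.27. The 17 other contractile genes stand at 0.20, 0.18 and 0.20 in knockout arrays 1 to 3. Knockout array 1 leads for macrophage and tendon genes, at 1.11 and 1.25.

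Genes of other cells of the tissue, some of which share transcripts with mural cells, were read in the same way. All 12 fibroblast genes had higher means in the knockouts, with list means of 9.75, 9.24 and 9.53 in the knockout arrays, against 9.01, 9.08 and 9.09 in the wild type arrays. 0 of 12 passed, and the smallest p-values belonged to Thy1, Mfap5 and Pi16, with changes of 0.49 ± 0.14, 0.64 ± 0.20 and 0.62 ± 0.20 (SE). All 10 macrophage genes were higher in mean too, with list means of 8.56, 7.81 and 7.77 in the knockout arrays, against 7.40, 7.46 and 7.49 in the wild type arrays. Again 0 passed, and the smallest p-values belonged to Cd68, Lyz2 and C1qa, with changes of 0.99 ± 0.23, 0.85 ± 0.22 and 0.57 ± 0.17 (SE). Fibroblasts can also make Pdgfrb, Acta2 and Tagln, and both cell types can make Anpep, and their part in these values was not tested. Knockout array 1 had the highest fibroblast and macrophage means. Without it, the changes of Pdgfrb, Acta2, Tagln and Anpep were 0.60, 0.57, 0.35 and 0.86. Without knockout array 3 they were 0.48, 0.30, 0.28 and 1.07. In each knockout array the fibroblast and macrophage means lay above all wild type arrays, so leaving out 1 array cannot separate the cell types.

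The 8 tendon genes had list means of 9.52, 8.53 and 8.47 in the knockout arrays, against 8.49, 7.93 and 8.38 in the wild type arrays. Of the 8, 0 passed, with Thbs4, Comp and Tnmd at 1.15 ± 0.23, 1.02 ± 0.34 and 0.99 ± 0.33 (SE; limma adjusted p = 0.0593, 0.164 and 0.165). The 8 adipocyte genes had list means of 7.81, 7.77 and 7.73 in the knockout arrays, against 7.70, 8.61 and 8.71 in the wild type arrays, so wild type array 1 lay with the knockouts. Again 0 of the adipocyte genes passed. Their smallest p-values were those of Retn, Lep and Plin1, at -1.44 ± 0.37, -1.15 ± 0.37 and -0.57 ± 0.25 (SE; limma adjusted p = 0.102, 0.157 and 0.279). Wild type array 1 was also the lowest array for Pdgfrb, Notch3 and Mcam, and without it the changes of Pdgfrb, Notch3 and Mcam were 0.43, 0.13 and -0.14. Of the 5 Schwann cell genes tested, 0 passed, with list means of 6.78 to 6.91 in knockout arrays and 6.72 to 6.75 in wild type arrays, and Pmp22, S100b and Egr2 at 0.31 ± 0.20, 0.14 ± 0.096 and 0.075 ± 0.18 (SE). Of the 8 muscle fibre genes, 0 passed, but in 6 the knockout arrays were all lower than every wild type array, as in 13.8% of all genes, and in 1 they were all higher. Ckm, Actn3 and Myh1, with the smallest p-values, were at -0.28 ± 0.083, -0.25 ± 0.085 and 0.43 ± 0.17 (SE). Their part in the values of the mural cell genes was not tested.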

How the data were processed

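Total RNA of 6 gastrocnemius samples was labelled with biotin and hybridised to Affymetrix whole-transcript arrays. The deposited values are intensities of 35556 probe sets on a linear scale, and the submitters' processing notes name RMA and Affymetrix Expression Console, version 1.3.0.187. The sources used here do not give the genome build. Changes of dim genes can be understated after RMA, no detection calls come with the values, and precision is limited by the number of arrays. All 6 columns were used.

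Log2 of the intensity was taken without an offset. The platform's annotation table gave the gene symbols: 21789 had 1 symbol, 1621 several and 12146 none. For 999 genes with several probe sets the one with the highest mean was used, and 3451 genes with a mean under 3.90 (the 25th percentile over probe sets) were left out. Genotypes were compared over 16487 genes with limma 3.58.1 in R 4.3.3 (lmFit and trended eBayes, two-sided tests, Benjamini-Hochberg adjustment). The procedure was tested on simulated data with equal spread in both genotypes. Recovery was required only of changes larger than those of the mural cell genes. P-values set the difference between genotypes against the spread among the arrays within each genotype, with that spread moderated over all genes.

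The mural cell genes and all gene lists were chosen with earlier results of these data known, so no test of a list was made. Of 146 list entries, 140 matched. Named were all mural cell genes, Sparc, and in each other list up to 4 genes past the threshold or else the 3 with the smallest p. Relatives of Acta2 were added, and genes named outside the rule or after their value was seen are marked as such. Alternatives covered the offset, normalization, filter, probe sets, variance model, array weights, a replicate block and each array left out.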

Additional observations from a re-analysis of the deposited data

How the results depend on the processing

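Over the 16 alternatives, the number of mural cell genes past the threshold was 0 in every one, including 0 with any 1 array left out, and their median change stayed between 0.26 and 0.36 (0.27 to 0.36 with 1 array left out). The number of all genes past the threshold was less stable: 164 as reported, 103 after centring the arrays on their medians, 329 with array weights, and 27 to 1017 with 1 array left out, the most without knockout array 2 and the fewest without wild type array 3. Centring moved the median of all genes to -0.041. Changes that turned negative belonged to genes with no call. Mcam was at -0.028 and Pdgfb at -0.035 after centring. With 1 array left out, Mcam ranged from -0.14 to 0.14, Rgs5 from -0.081 to 0.21, Egr2 from -0.12 to 0.20, Abcc9 from -0.0097 to 0.24, Hey2 from -0.089 to 0.37 and Pdgfb from -0.12 to 0.091. The cause was not tested. Of the values of 55 single genes under these settings, 838 kept their direction and side of the threshold, 19 passed newly, 12 of them without knockout array 2, and 9 lost a call. The titles number the arrays 1 to 3 in both genotypes. Deviations of same-numbered arrays from their group means correlated at 0.0088, 0.082 and -0.020, and not every array correlated best with its own number, so the numbers were not taken as pairs. With the replicate number as a block, 123 genes passed, 0 of them mural cell genes, whose median change was 0.30.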
